A study of Mus musculus with 13 samples.

Results

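The 304 widest binding sites of the leukaemia fusion protein NUP98-PHF23 (NP23) in the mouse line 961C are described here. They are the NP23 peaks of 500 bp or more, chosen by width alone from a list of 1629 peaks, and the other 1325 peaks of that list are shorter. The narrowest chosen peak was 500 bp wide with a maximum height of 13 reads, and the widest peak left out was 498 bp wide with a maximum height of 49 reads. Widths and heights of NP23 peaks come from the same list that the choice used, so they are given as a description with no test.

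NUP98 is a protein of the nuclear pore, and PHF23 contributes a PHD finger, a small protein fold that can bind histone H3 carrying 3 methyl groups on lysine 4 (H3K4me3). H3K4me3 marks promoters in use, and stretches of it that run far beyond a promoter are known from genes that keep a cell's identity. H3K27me3, written by Polycomb complexes, marks silent chromatin. Mouse leukaemias with this fusion are known for raised expression of Hoxa and Hoxb genes and of Meis1.

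Chromatin immunoprecipitation and sequencing gave 1 H3K4me3 and 1 H3K27me3 peak list for each of 4 cytokine-independent mouse lines, and 1 NP23 list, made with an antibody to the V5 tag, for 961C. Line 961C came from an NUP98-PHF23 AML of mouse 961, and lines 748T and 106A (M106A in the sample names) came from NUP98-PHF23 pre-T LBL of mice 748 and 106, all on strain C57BL/6. The control line 7298/2 came from an SCL-LMO1 pre-T LBL on a C57BL/6+C3H hybrid strain, and is called SCL-LMO1 below. Each line stems from 1 animal, NP23 was mapped in 961C alone, and oncogene and strain differ together in the control. With 1 library per line and target, no difference between lines or between sets of peaks was tested. Intervals in the text are exact Clopper-Pearson 95% intervals over peaks, which cover counting error only. The depth of the libraries is unknown, since the lists give no read totals. Listed H3K4me3 peaks numbered 16324 to 17696 per line. Their median maximum height was 38 reads in 961C and 76 to 97 reads in the pre-T lines, so heights were compared by rank within a list. Coordinates are on mm9, and which genes lie at them was not analysed here.

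The chosen NP23 peaks ranged from 500 to 37347 bp, with a median of 1077.5 bp and quartiles of 650 and 2186.75 bp. Together they covered 572.306 kb, of which the 10 widest held 19.7%. By width, 143 peaks were under 1 kb, 78 from 1 to under 2 kb, 53 from 2 to under 4 kb and 30 were 4 kb or more. The wider peaks were also the taller ones. Median maximum height was 13, 19.5, 29 and 36 reads in those 4 classes, and Spearman's rho between width and maximum height was 0.69 over the 304 peaks. A maximum is taken over more bases in a wider peak, and the median of the mean heights rose as well, from 6.39 through 8.31 and 11.1 to 13.2 reads. Over all 304 peaks the mean height ranged from 3.33 to 38.5 reads with a median of 8.08, close to the 8.07 reads of the shorter NP23 peaks.

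The peak lists carry a second, unexplained track with low values. Its mean was above 1 read in 6 of the 304 wide peaks (1.97%, interval 0.728 to 4.25) and in 202 of the 1325 shorter ones (15.2%, 13.4 to 17.3). Of the 5 tallest wide peaks, 2 were among these 6. One lay on chromosome 17 from 39984281 to 39985175, reaching 85 reads at a second-track mean of 9.85 reads. The other lay on chromosome 4 from 129912066 to 129912634, reaching 74 reads at 3.76 reads. The remaining 3 had second-track means of 0.282 to 0.768 reads, and the tallest of them, 6737 bp wide on chromosome 3 from 58219065 to 58225801, reached 82 reads.

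Almost every wide NP23 peak lay on H3K4me3 of the same line. Of the 304 peaks, 303 (99.7%) overlapped a listed H3K4me3 peak of 961C by at least 1 bp, beside 72.0% of all NP23 peaks and 65.7% (63.0 to 68.2) of the shorter ones. A longer peak has more bases with which to meet another, and no allowance was made for that. The same 303 peaks passed when at least 50% of the NP23 peak had to lie under H3K4me3. The exception was a peak of 638 bp on chromosome 3 from 121002399 to 121003036, with a second-track mean of 1.40 reads.

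H3K27me3 was rare at these sites. In 961C it overlapped 9 of 304 wide peaks (2.96%, 1.36 to 5.55), beside 9.64% of all NP23 peaks and 11.2% of the shorter ones. The 9 were mostly on short stretches of H3K4me3: 7 of the 14 wide NP23 peaks on an H3K4me3 peak under 1 kb overlapped H3K27me3, against 2 of 289 on longer ones. The 7 include the peaks on chromosomes 17 and 4 named above, with second-track means of 9.85 and 3.76 reads. How often H3K4me3 peaks of 961C under 1 kb overlap H3K27me3 in general was not counted here, so the contrast is not read as particular to NP23 sites. The widest of the 9 lay on chromosome 6 from 52177528 to 52185869 and shared 257 of its 8342 bases with H3K27me3, at the end where it ran past the H3K4me3 peak. In the pre-T lines, H3K27me3 overlapped 3 wide NP23 sites in 748T, 3 in 106A and 2 in SCL-LMO1, beside 0.307%, 0.246% and 0.123% of all NP23 peaks. All of these were among 3 of the 5 wide NP23 peaks that lie on chromosome 11 between 96112201 and 96184458, and the other two had none.

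The 303 peaks fell on 187 distinct H3K4me3 peaks of 961C, called domains below, which are 1.06% of the 17696 H3K4me3 peaks of the line. Where an NP23 peak touched several, which happened for 5 of the 304, the H3K4me3 peak sharing most bases was taken. Domain width ranged from 335 to 52598 bp with a median of 4244 bp, against a median of 1033 bp for all H3K4me3 peaks of 961C. One wide NP23 peak was found in 117 domains, 2 in 42, 3 in 16, 4 in 7, 5 in 4 and 6 in 1, so peaks of the same domain are not independent of each other. The median domain had 49.1% of its bases under wide NP23 peaks, and 92 of 187 (49.2%, 41.8 to 56.6) were covered over 50% or more. Wider domains held more NP23 bases (rho = 0.78, n = 187), a relation that is partly built in, since domain width caps the bases counted. From 2 kb upward the covered share was also larger in wider domains, with medians of 29.9% in 59 domains of 2 to 4 kb, 41.9% in 50 of 4 to 6 kb, 57.1% in 36 of 6 to 10 kb and 82.0% in 15 of 10 kb or more. In the 27 domains under 2 kb the median was 74.8%, and an NP23 peak of at least 500 bp necessarily takes a large share of such a domain.

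Inside their domains, wide NP23 peaks were found both near the edge and near the centre. Of the 303, 277 (91.4%, 87.7 to 94.3) lay wholly inside their domain, 22 ran past 1 end and 4 past both. Position was measured as the offset from the nearer end relative to the room left by the NP23 peak, folded so that 0 is the edge and 1 the centre. A peak alone in its domain and evenly placed would fall below 0.5 in 50% of cases. That value does not hold for peaks that share a domain, as 176 of the 277 did, since they cannot overlap. Of the 277, 147 (53.1%, 47.0 to 59.1) were below 0.5, and the median was 0.453. The distance to the nearer domain end ranged from 5 to 9836 bp with a median of 808 bp.

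**Figure D1:**
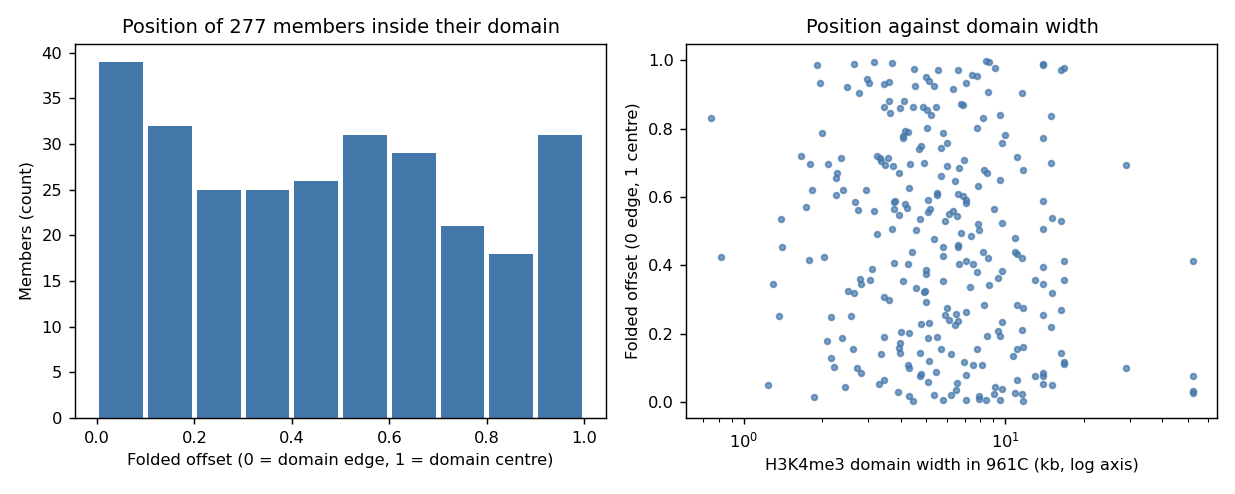
Left, number of wide NP23 peaks (vertical axis, count) in bins of 0.1 of the folded offset (horizontal axis, 0 at the domain edge and 1 at its centre) for the 277 peaks wholly inside their 961C H3K4me3 domain. Right, folded offset of each peak against domain width in kb on a log axis; the bins hold 18 to 39 peaks, with 39 at the edge and 31 at the centre, and points at every offset are seen across most widths.

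Position on this scale varied with the width of the domain and with the number of NP23 peaks it held. A low offset does not mean that a peak is confined to the edge, since a peak that fills most of its domain also covers the centre. For example, the NP23 peak of 7574 bp in a domain of 8177 bp on chromosome 11 had an offset of 0.109. Below 0.5 lay 29 of 65 NP23 peaks (44.6%, 32.3 to 57.5) in domains of 2 to 4 kb, 59 of 117 (50.4%, 41.0 to 59.8) in domains of 4 to 8 kb and 52 of 80 (65.0%, 53.5 to 75.3) in domains of 8 kb or more. NP23 peaks that were alone in their domain were on the edge side in 43 of 101 cases (42.6%, 32.8 to 52.8). Those that shared a domain were so in 104 of 176 (59.1%, 51.4 to 66.4). Peaks of the same domain cannot overlap each other, and the shift was not tested. Taking the widest NP23 peak of each domain alone, 80 of 171 (46.8%, 39.1 to 54.6) were on the edge side. Heights were alike on both sides: the median mean height was 7.82 reads on the edge side and 7.83 reads on the centre side, and the median maximum was 18 reads on both.

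The height of a wide NP23 peak followed the height of its H3K4me3 domain only loosely. Spearman's rho over the 303 peaks was 0.31 for mean height, 0.28 for maximum height and 0.50 for width. These points share a line and, within a domain, its height, so rho is given as a description. Without the peaks of second-track mean above 1 read it was 0.30, 0.28 and 0.50 (n = 298). NP23 mean height also went with the second track (rho = 0.53, n = 304), and the part of that in the relation to H3K4me3 was not tested. Both heights lay on the same side of their medians for 189 of 303 peaks (62.4%, 56.7 to 67.9).

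Sorted into 4 equal classes by the mean height of the domain, with median domain heights of 18.1, 24.2, 27.9 and 32.7 reads, the NP23 peaks had median mean heights of 6.83, 7.20, 8.76 and 9.52 reads. In reads, NP23 was lower than the domain in 297 of 303 cases, at a median ratio of 0.331 (0.0956 to 1.47), a ratio that also carries the unknown depths of both libraries. Among listed peaks of all widths, the domains ranked high by maximum height, at a median percentile of 85.9 in 961C. The 155, 153 and 150 domains with H3K4me3 in 748T, 106A and SCL-LMO1 had peaks at 76.9, 76.3 and 80.3 there. H3K4me3 peaks of 961C without NP23 were almost as tall at similar width. From 2000 to under 4000 bp the median maximum was 74 reads in domains and 71 reads without NP23. From 4000 to under 6000 bp it was 77.5 and 74 reads, and from 6000 to under 8000 bp 77.5 and 77 reads.

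**Figure D2:**
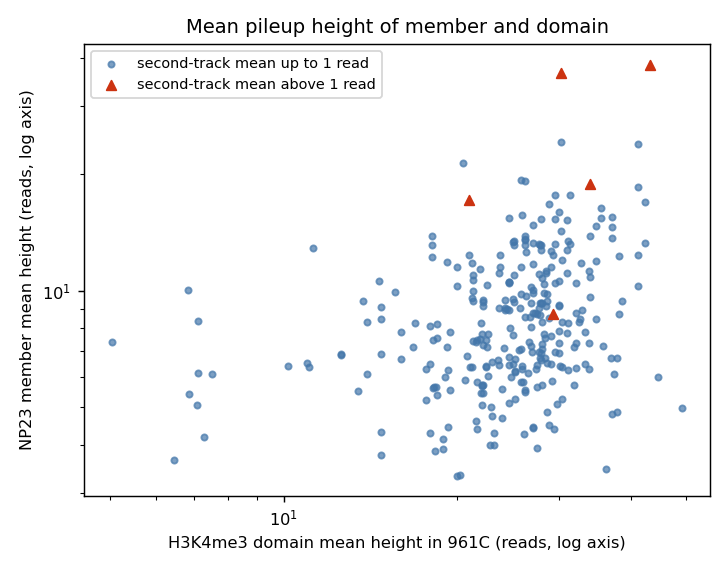
Mean pileup height of each wide NP23 peak (vertical log axis, reads) against that of its H3K4me3 domain (horizontal log axis, reads) in 961C, 303 peaks; red triangles have a second-track mean above 1 read. NP23 heights spread widely at every domain height, rho is 0.31, and the 2 highest points are both red triangles.

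In the pre-T lines, most of the wide NP23 sites also met H3K4me3, with or without the fusion. H3K4me3 overlapped 194 of 304 sites (63.8%, 58.1 to 69.2) in 748T, 196 (64.5%, 58.8 to 69.9) in 106A and 189 (62.2%, 56.5 to 67.6) in SCL-LMO1, beside 23.7%, 23.9% and 23.3% of all NP23 peaks. The intervals of the 3 lines overlap almost wholly. Of the 304 sites, 180 were marked in all 3 lines and 98 in none. Many were marked only in part, as 95, 108 and 97 sites lay wholly inside H3K4me3 of 748T, 106A and SCL-LMO1. How often all NP23 peaks are marked in all 3 lines, in none or over their whole width was not counted here. These counts are therefore not read as particular to the wide peaks.

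Counted by domain, H3K4me3 was present but narrower. It was listed at 155 of 187 domains in 748T (82.9%, 76.7 to 88.0), 153 in 106A (81.8%) and 150 in SCL-LMO1 (80.2%), beside 70.6%, 66.8% and 68.6% of all H3K4me3 peaks of 961C. The widest peak at a domain, counted as 0 where there was none, had a median of 2132 bp in 748T, 2434 bp in 106A and 2285 bp in SCL-LMO1, against 4244 bp in 961C. The median ratio to the 961C width was 0.49, 0.53 and 0.50, and for the fusion lines together 0.51 ± 0.03 (SD, n = 2 lines). On these medians the control line fell between the NP23 lines. With the peaks of every line joined within 1 kb, the ratios were 0.52, 0.58 and 0.50, and the control was lowest. Without joining, the control also had the lowest median share of domain bases covered (49.5%, 57.8% and 47.4%). H3K4me3 was under 0.5 of the 961C width, or not listed, at 96, 88 and 93 domains (51.3%, 47.1% and 49.7%), beside 34.6%, 37.1% and 35.3% of all H3K4me3 peaks of 961C. It was wider than in 961C at 15, 27 and 21 domains, beside 31.6%, 36.2% and 35.1% of all peaks. Some of these are neighbouring domains of 961C that a short gap splits and 1 pre-T peak spans. With the peaks of every line joined within 1 kb, which left 157 domains, the numbers were 6, 14 and 5. An example is the domain on chromosome 5 from 123585638 to 123592558, 6921 bp wide, at which the pre-T peaks of 9159, 8479 and 7496 bp were wider but covered 85.2%, 80.6% and 88.2% of its bases. The Spearman correlation of width over the 187 domains was 0.86 to 0.89 between pre-T lines and 0.38 to 0.47 between each of them and 961C. Over all 17696 H3K4me3 peaks of 961C it was 0.83 to 0.84 and 0.56 to 0.61. Both sets consist of 961C peaks, and an absent pre-T peak counts as width 0. All pre-T lines were at 0 together at 30 of the 187 domains and 4447 of the 17696 peaks, where 961C cannot be. The order of these correlations is thus partly built in, and no likeness between lines is read from it. The domains were chosen through NP23 peak width in 961C, which went with the width of H3K4me3 in that line.

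**Figure D3:**
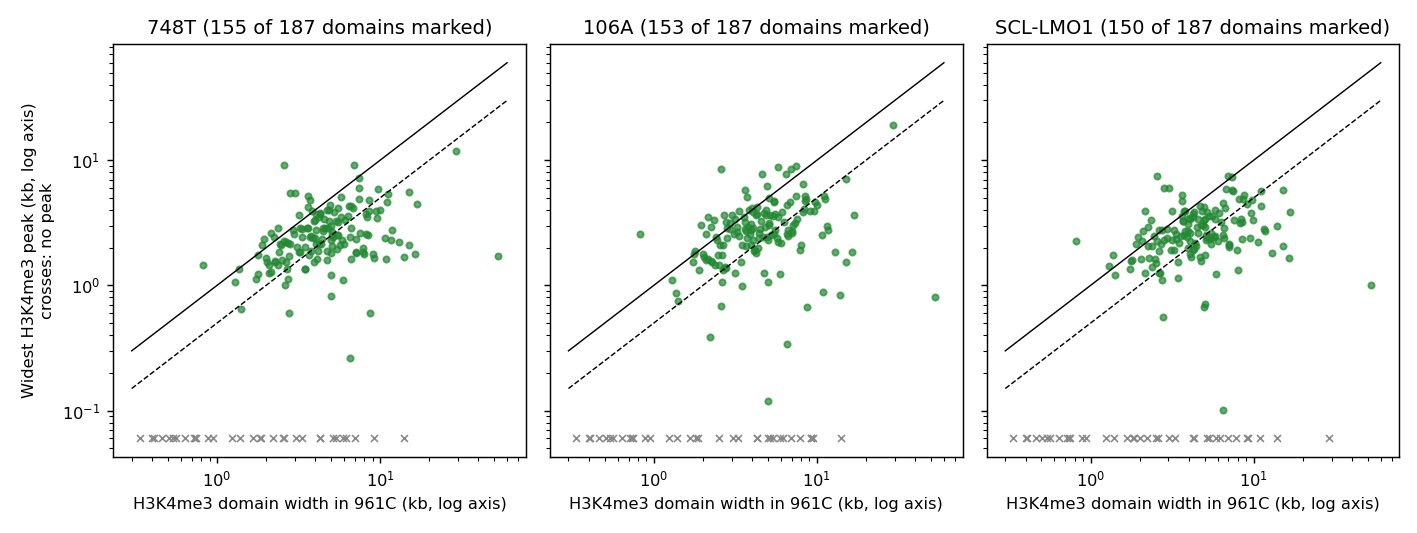
Width of the widest H3K4me3 peak of each pre-T line (vertical log axis, kb) against the width of the 961C H3K4me3 domain (horizontal log axis, kb) for the 187 domains that hold a wide NP23 peak; the solid line is equal width, the dashed line 0.5 of it, and crosses stand for domains with no peak in that line. Most points lie below the solid line in all 3 panels, and 96, 88 and 93 domains lie below the dashed line or are crosses.

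Because most of these domains were wide in 961C to begin with, they were set beside H3K4me3 peaks of 961C of the same width class that hold no NP23 peak of any width. Under 1 kb, 1 of 14 domains (7.14%) was marked in each pre-T line, against 53.9%, 49.6% and 51.8% of the 8050 peaks without NP23. From 1 to 2 kb, 8 of 13 domains (61.5%) were marked in each line, against 88.7%, 84.7% and 86.5% of 5733 peaks. Short domains were thus marked less often in the pre-T lines than peaks without NP23, a difference that was not tested. Some domains under 1 kb lie across a short gap from another domain. An example on chromosome 11 starts at 60584999, and its neighbour ends at 60584800. The short domains at 39984212 on chromosome 17 and 129912070 on chromosome 4 had second-track means of 8.86 and 3.79 reads. The width classes were not repeated with joined peaks. From 2 to 4 kb, the 59 domains had median pre-T widths of 2028, 2402 and 2298 bp in 748T, 106A and SCL-LMO1, and the 2864 peaks without NP23 had 1929, 2058.5 and 2020 bp. The domains were the wider set in 961C there, at a median of 2815 against 2444 bp, and the pre-T peaks covered less of them: 65.8%, 77.0% and 68.8% at the median against 80.6%, 86.4% and 84.7%. From 4 to 6 kb, the 50 domains had 2519.5, 2685 and 2466 bp, below the 2796, 2956 and 3095 bp of the 159 peaks without NP23. From 6 to 8 kb, the 22 domains had 2535, 2900 and 2687 bp and the 12 peaks without NP23 had 3821, 4209.5 and 4863 bp. The domains therefore had the lower median in every pre-T line in both classes, while their 961C heights were close (median mean height 26.3 against 25.4 reads from 4 to 6 kb). They were also somewhat wider in 961C within the class, at a median of 4944 against 4485 bp and 6948 against 6455 bp. No H3K4me3 peak of 10 kb or more was free of NP23. The 15 domains of that size had a median width of 13920 bp in 961C and of 2312, 2537 and 2227 bp in 748T, 106A and SCL-LMO1.

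The fusion lines and the control had similar widths over these domains. Of the 187, 148 had H3K4me3 in all 3 pre-T lines and 30 in none, beside 10968 and 4447 of the 17696 H3K4me3 peaks of 961C. Among the 148, H3K4me3 was wider in both 748T and 106A than in SCL-LMO1 at 48 (32.4%, 25.0 to 40.6; 27.7% of all 961C peaks marked in all lines) and narrower in both at 41 (27.7%, 20.7 to 35.7; 35.1% of all). The median width relative to SCL-LMO1 was 0.98 in 748T and 1.03 in 106A. In all, 3 domains (1.60%) were marked in both fusion lines and not in the control, and none was marked in the control alone. How often these patterns occur over all H3K4me3 peaks of 961C was not counted here, so 1.60% cannot be called low or high. All 3 domains were on chromosome 6. The widest, from 52156421 to 52185551, was 29131 bp in 961C with peaks of up to 11813 bp in 748T and 19011 bp in 106A. The next, from 51952513 to 51963434, was 10922 bp in 961C and 1634 and 889 bp in the fusion lines. The narrowest, from 51473492 to 51475491, was 2000 bp in 961C and 1647 and 1771 bp in the fusion lines.

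The widest domains show the range of these patterns. On chromosome 11 from 96132114 to 96184711, H3K4me3 of 961C ran over 52598 bp and its widest peak was 1717 bp in 748T, 804 bp in 106A and 1006 bp in SCL-LMO1. Its 4 wide NP23 peaks lay side by side and were 831, 7920, 4977 and 37347 bp wide. Their mean height increased in that order, from 7.80 through 11.1 and 12.7 to 15.3 reads. H3K27me3 was listed inside this domain in the pre-T lines, as 5 peaks in 748T, 6 in 106A and 3 in SCL-LMO1, while 961C had none. At the chromosome 6 domain of 29131 bp, by contrast, the 4 wide NP23 peaks covered 98.2% of the bases and no pre-T line had an H3K27me3 peak inside. The outer 2 of those NP23 peaks ran past the domain's ends.

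**Figure D4:**
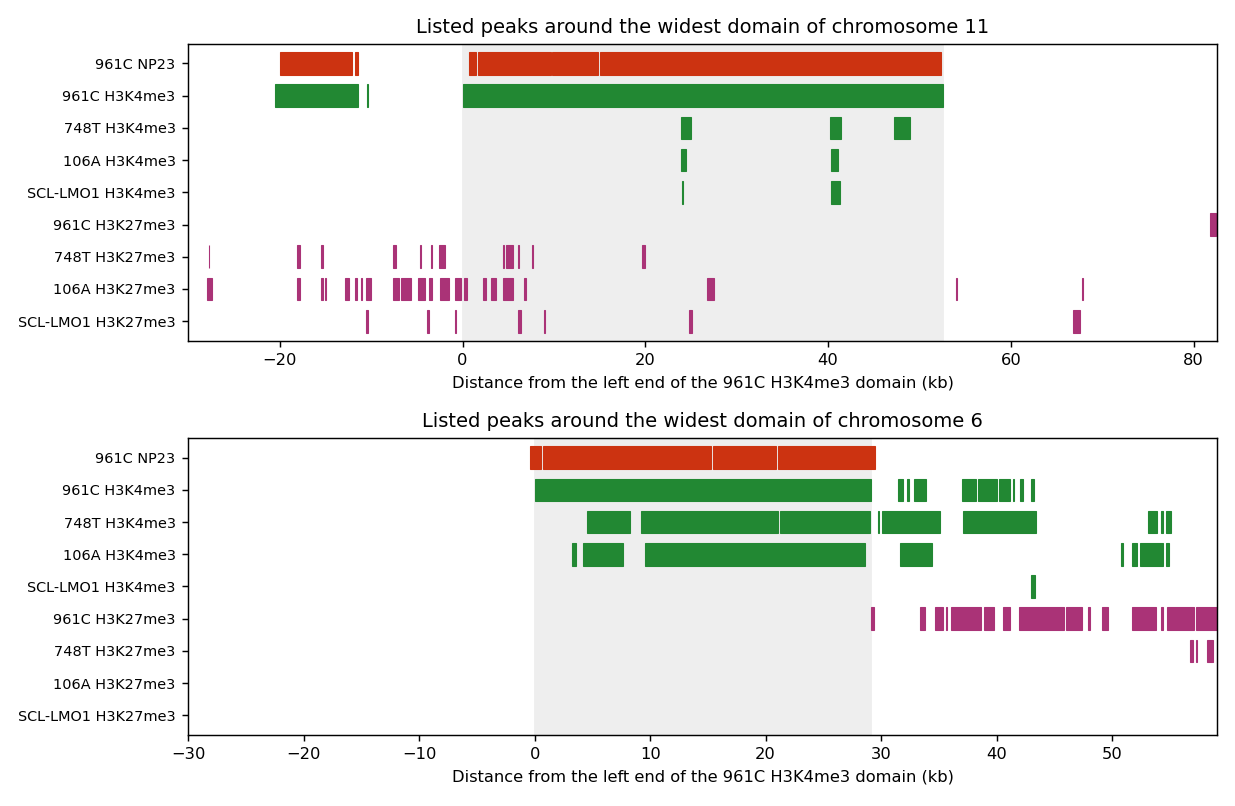
Listed peaks in each library (rows) around the widest domain of chromosome 11 (top) and of chromosome 6 (bottom), by distance from the left end of the 961C H3K4me3 domain in kb, with the domain shaded. NP23 fills both domains, H3K4me3 of the pre-T lines is limited to a few narrow peaks in the upper domain, and in the lower one 748T and 106A have wide peaks and SCL-LMO1 has none.

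Among the 30 domains without H3K4me3 in any pre-T line, width ranged from 335 to 13974 bp with a median of 1522 bp, and they are 16.0% (11.1 to 22.1) of the 187, beside 25.1% of all H3K4me3 peaks of 961C. They are of contrasting sizes. Of the 14 domains under 1 kb, 13 were unmarked in the pre-T lines, against 17 of 173 (9.83%, 5.83 to 15.3) of 1 kb or more. The widest, on chromosome 11 from 18906962 to 18920935, was 13974 bp with a mean height of 14.7 reads and held 5 wide NP23 peaks with mean heights of 3.76 to 9.06 reads. The next, on chromosome 11 from 96111545 to 96120684, was 9140 bp with a mean height of 29.1 reads and held a single NP23 peak of 7856 bp. A domain on chromosome 19 from 12533686 to 12540660 was 6975 bp and the tallest of the 10 widest unmarked ones, with a mean of 38.1 reads.

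Within a domain, wide NP23 peaks tended to lie over the part that was also marked in pre-T lines. This pattern and the next were picked after the data were seen, among several descriptions of position, height, width and chromosome, and were not tested. In 141 domains a marked part, an unmarked part and bases beside the NP23 peaks could be compared. The median share of bases with H3K4me3 in any pre-T line was 94.0% under wide NP23 peaks and 58.2% in the rest of the same domain. The share was higher under NP23 in 120 of 141 domains (85.1%, 78.1 to 90.5), lower in 21, and the median difference was 19.9 percentage points. Read the other way, the median domain had 59.4% of its marked part and 6.66% of its unmarked part under wide NP23 peaks. In the control line alone, which is also part of the mark in any pre-T line, 121 of 142 domains were higher (85.2%). Of the wide NP23 peaks, 277 of 303 lay wholly inside their domain, so domain ends fall mostly among the other bases. Pre-T peaks were also mostly narrower than the domains. The part of this geometry in the pattern was not tested. The pattern was less frequent in domains of 5 kb or more (49 of 65) than in shorter ones (71 of 76). It turned when bases were summed over all 187 domains, where 49.8% of bases under wide NP23 and 54.3% of other domain bases were marked. Without the 10 widest domains the sums were 58.5% and 56.3%. The widest domains differed in this. The domain of 52598 bp had 51075 bp under wide NP23 peaks and 3939 bp marked in any pre-T line. The domain of 29131 bp had 28609 bp under them and 24186 bp marked. The part of single domains in the sums was not tested.

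Domains with wide NP23 peaks lay in groups along the chromosomes. Another such domain lay within 200 kb of 147 of the 187 (78.6%, 72.0 to 84.3). Because wide H3K4me3 peaks could themselves be grouped, only peaks of 4 kb or more were compared next. Of 101 with a wide NP23 peak, 69 (68.3%, 58.3 to 77.2) had another within 200 kb, and of 172 without NP23, 18 (10.5%, 6.32 to 16.0) had another without NP23. Among H3K4me3 peaks of 1 kb or more, the nearest neighbour held a wide NP23 peak for 96 of 173 domains (55.5%, 47.8 to 63.0) and for 76 of 8767 peaks without NP23 (0.867%, 0.684 to 1.08). The second track over these H3K4me3 peaks was alike in both sets, with medians of 0.308 and 0.295 reads. Domains split by a short gap count as neighbours, and 68.4% still had another when those closer than 10 kb were left out of the count.

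Joining domains within 200 kb gave 43 groups of 2 or more and 24 of 3 or more, and the latter held 109 of the 187 domains (58.3%, 50.9 to 65.4). Inside those 24 groups, 104 of 152 H3K4me3 peaks of 1 kb or more held a wide NP23 peak, a share that the way the groups were formed favours. The group with the most NP23 peaks, on chromosome 17 from 34056193 to 34350203, held 9 domains and 16 wide NP23 peaks, and all 9 domains were marked in all 3 pre-T lines. A group on chromosome 5 from 115583380 to 115799940 held 9 domains and 15 peaks, of which 7 domains were marked in each pre-T line. A group of 3 domains on chromosome 11 from 22742026 to 22883315 held 10 peaks over 21.586 kb, and its median width ratio was 0.20, 0.22 and 0.23 in 748T, 106A and SCL-LMO1.

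By chromosome the sites were uneven. Chromosome 11 held 76 of the 304 wide NP23 peaks (25.0%) and 42 of the 187 domains (22.5%), beside 8.04% of all H3K4me3 peaks of 961C and 7.85% of the shorter NP23 peaks. Chromosomes 5 and 17 followed with 34 and 32 wide peaks. Chromosomes 10, X and Y held none, and 7, 8, 9 and 16 held 2 or 3 each. Of the H3K4me3 peaks of 4 kb or more, 101 of 303 (33.3%) held a wide NP23 peak. On chromosome 11 these were 23 of 45. The share was higher on chromosomes 14 (9 of 12), 17 (10 of 16) and 3 (10 of 18). None did among the 21 on chromosome 7 and the 12 on chromosome 10.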

How the data were processed

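Line and target of each list were taken from the labels. Of 13 samples, 9 have a peak list and the 4 inputs were not used here. Chromatin was fixed with 1% formaldehyde, sonicated and sequenced in single-end runs, per the labels' protocols. CASAVA 1.9, BWA 0.5.9-r26 and build mm9 are named, per the submitters' processing notes. A peak caller was not given in the sources used here. The lists deposited by the authors give start, end and a text field, read from its values as mean and maximum pileup signal (coverage in reads) of the library and of a second track. Depth is unknown, and listed peak heights limit precision.

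Peaks were compared by an overlap of 1 bp or more. Python 3.11.15, numpy 2.4.6, pandas 2.3.3, scipy 1.17.1 and matplotlib 3.10.9 were used, and the overlap and position steps were tested on simulated data. The members and lists were chosen with earlier results of these data known. Regions named are the 10 widest NP23 peaks and domains, the 5 tallest peaks, those next to the 500 bp limit, those with H3K27me3 or without H3K4me3, and the domains that differed most between lines; groups of domains and chromosomes were named after their values were seen. Shares used to compare settings (same side of the medians, under 0.5 of the 961C width, 50% covered) were chosen after the lists were opened, so that an interval could be given. Alternatives were other limits on NP23 width, overlap, second track and H3K4me3 height, H3K4me3 peaks joined within 1 kb, 1 NP23 peak per domain, autosomes alone and omission of 748T or 106A. No sequence is printed, since no mm9 genome was used here.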

Additional observations from a re-analysis of the deposited data

How the results depend on the processing

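Of 51 alternatives, 27 stayed within the interval (or, for the NP23 pre-T group, the SD) of the value reported, 23 moved outside it and 1 turned its sign. The 27 include settings that could not move, namely autosomes alone and the omission of 748T or 106A. With 2 lines, each value always lies within the SD of their mean. The limits are 1 library per line and target, unknown depth, lists cut at an unstated threshold, and NP23 peaks that share domains. With NP23 peaks of 1000 bp or more, overlap with 961C H3K4me3 was 100%, overlap with H3K27me3 1.24%, the share of domains under 0.5 of their 961C width 61.2% in 748T and 59.2% in SCL-LMO1, and the share of domains marked more under NP23 76.5%. With 50% of the NP23 peak covered, overlap was 0.987% for H3K27me3 of 961C and 52.3%, 54.6% and 51.6% for H3K4me3 of 748T, 106A and SCL-LMO1. Against the taller 50% of 961C H3K4me3 peaks it was 93.8%. The edge-side share was 46.8% with the widest NP23 peak per domain. Domains covered over 50% or more were 56.7% when all NP23 peaks counted and 38.2% when H3K4me3 peaks were joined within 1 kb. After that joining, 3.82%, 8.92% and 3.18% of domains were wider in 748T, 106A and SCL-LMO1 than in 961C, against 8.02%, 14.4% and 11.2% before. Autosomes alone gave identical values, since no domain lay on X or Y. The difference in marked share, a median of 19.9 percentage points, was -4.48 points when bases were summed over domains and 2.19 points without the 10 widest; the domains marked more under NP23 were 75.4% at 5 kb or more. Domains with a neighbour were 62.0% within 50 kb, 68.4% between 10 and 200 kb, 70.7% after joining and 68.3% at 4 kb or more, and those without NP23 were 5.81% within 50 kb. The cause of these shifts was not tested. Leaving out each NP23 pre-T line gave width ratios of 0.49 to 0.53. No paired analysis was possible because no result comes from a test over samples.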
